A study of Saccharomyces cerevisiae with 24 samples.

Results

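Footprints recovered with Hel2 were compared with all footprints in the cytosolic fraction of the strain labelled SRP72p, with 2 Hel2 immunoprecipitation (IP) libraries set against 2 input libraries. These 4 libraries were chosen by their group labels, out of 24 in the study. The strain was MATa, held ade2, his3, leu2, trp1, ura3 and can1 alleles, and carried Hel2 with an FTP tag (HEL2-FTP::natNT2). Its chromosomal SRP72 gene was replaced by HISMX6, and SRP72 with a V5 tag was supplied on the plasmid pRS415 under the SRP72 promoter. Inputs and IPs share all of these changes, so that the comparison is between recovered and total footprints of a single engineered strain. Cultures grew in the rich medium YPD at 30 °C to an OD600 of 0.5 to 0.6, and footprints were made with RNase I.

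Hel2 is a ubiquitin ligase that binds ribosomes which have run into one another on a message, and marks them for quality control. The signal recognition particle (SRP), of which Srp72 is a protein subunit, binds signal sequences as they leave the ribosome and brings the ribosome to the endoplasmic reticulum (ER), where the chain passes into the Sec61 channel. Messages for secreted and membrane proteins are therefore mostly translated at the ER membrane. The cytosolic fraction holds the messages of cytosolic, nuclear and mitochondrial proteins, and may hold those that have not yet been brought to the ER. Why footprints of secreted and membrane proteins lie in this fraction was not tested.

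Libraries of other groups serve as points of reference. The membrane fraction of the same SRP72p strain, solubilised with 1% Triton X-100, gave 2 inputs and 2 IPs. A strain labelled GIT1p differs in the promoter on the plasmid (pRS415-GIT1p-SRP72-V5) and gave 2 cytosolic inputs and 2 cytosolic IPs. The strain here called HEL2-FTP keeps its chromosomal SRP72, and its inputs were used to measure which messages lie at the membrane.

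Counts per gene summed to 3327159 and 4322933 in the inputs and to 3010662 and 4203967 in the IPs, so that 3 counts correspond to 0.694 to 0.996 counts in 1000000 (CPM). CPM values below are scaled by the TMM method, and log2 values are changes of IP over input unless another quantity is named. The replicates of each group differed by more than counting noise, since the chi-square of their counts divided by its degrees of freedom was 7.28 for the inputs and 7.50 for the IPs. The SRP72p membrane inputs stand apart from the other groups at 80.7, with 0.815% and 0.0402% of their counts on the 28 mitochondrially encoded identifiers. The mating type was checked by its markers, since STE2, the receptor of MATa cells, had 42.8 and 36.6 CPM in the inputs and 99.5 and 90.7 CPM in the IPs, while STE3, that of MATalpha cells, had 0 and 0.674 CPM in the inputs and 1.00 and 0.47 CPM in the IPs. Nothing in the labels says that replicates came from separate cultures, and the p-values then measure only a spread between libraries, which may be technical. That spread was estimated from all 16 libraries with counts, not only from those compared, and the SRP72p membrane inputs are among them.

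The targeted gene and the marker genes were compared with the labels. SRP72 had 136 and 138 CPM in the cytosolic inputs labelled SRP72p and 324 and 307 CPM in those labelled GIT1p, so that the inputs with the GIT1 promoter on the label hold the higher level. The labels give both strains his3, leu2 and trp1 alleles, the HISMX6 deletion and a pRS415 plasmid, a vector that carries LEU2. HIS3 nevertheless had 543 and 516 CPM in the SRP72p inputs and 24.3 and 21.5 CPM in the GIT1p inputs. TRP1 had 79.3 and 70.5 CPM under SRP72p and 1.33 and 2.04 CPM under GIT1p. LEU2 went the other way, with 66.2 and 58.6 CPM under SRP72p and 1721 and 1617 CPM under GIT1p. The marker counts thus differ between strains in ways that the labelled genotypes do not, and every value set between the strains is a difference between libraries labelled SRP72p and GIT1p. The comparison of IP with input uses libraries of a single label, and HIS3, LEU2 and TRP1 were on the same side of the GIT1p inputs in all 4 of them.

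Across 5714 genes tested with edgeR's quasi-likelihood test, 3925 (68.7%) differed between IP and input at an adjusted p below 0.05, 2156 (37.7%) higher and 1769 (31%) lower in the IP. With the library totals that the deposited RPKM imply, 2369 genes passed, 1716 higher and 653 lower, and the median of all genes moved by 0.24 on the log2 scale. A log2 change of 1 or more was reached by 1550 genes (27.1%) upward and by 1006 (17.6%) downward. Both IP libraries lay above both inputs for 2541 genes (44.5%) and below both for 2168 (37.9%). The median log2 change was 0.11, with 1 gene in 10 below -1.43 and 1 in 10 above 2.07. Genes for secreted and membrane proteins and genes with long coding sequences were mostly higher in the IP, and genes for ribosomal proteins and other short cytosolic proteins mostly lower.

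Membrane association was taken from the HEL2-FTP strain, which shares no library with this comparison. There 865 of 5521 genes (15.7%) were higher by a log2 of at least 1 in the membrane input than in the cytosolic input (limma adjusted p below 0.05), and 864 of these were tested here. Of the 864, 725 rose in the SRP72p cytosolic IP, 6 fell and 133 did not pass the test, with a median log2 change of 1.45. Among the other 4639 genes measured in both tables, 1339 rose and 1762 fell, with a median of -0.18. The share of all counts on the 864 genes was 2.19% (95% Wilson interval 2.18% to 2.21%) and 2.01% (1.99% to 2.02%) in the inputs, and 5.40% (5.38% to 5.43%) and 5.53% (5.50% to 5.55%) in the IPs. These intervals cover counting error only, and the difference between input and IP was larger than that between replicates.

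The change was larger in the classes of stronger membrane association. Genes whose membrane input was below the cytosolic input in HEL2-FTP had a median change of -0.37 in the SRP72p cytosolic IP (3823 genes). Genes with a membrane association between 1 and 2 on the log2 scale had a median of 0.93 (236 genes), those between 2 and 3 a median of 1.41 (325 genes), and those of 3 and above a median of 1.70 (304 genes, 303 of them called higher). The order was not strictly even, since the 684 genes between 0 and 0.5 had a median of 0.86 and the 131 genes between 0.5 and 1 a median of 0.33. Over 5503 genes the Spearman rho between the measures was 0.576, a description across genes, which are not independent replicates.

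**Figure D1:**
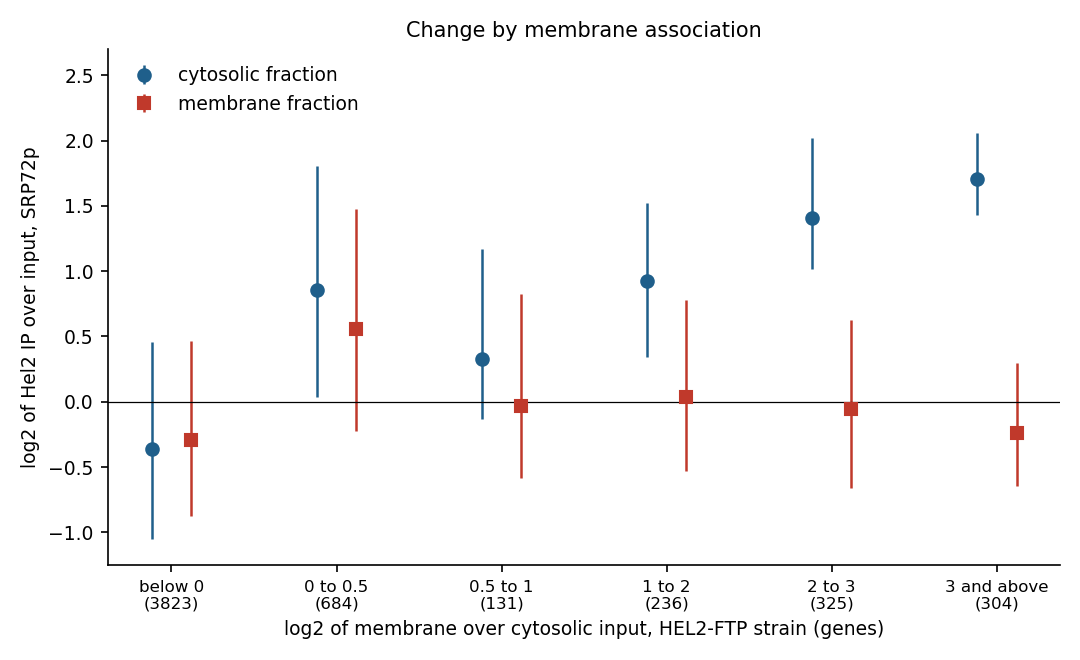
Median log2 change of Hel2 IP over input in the SRP72p strain (y axis) for genes grouped by the log2 of membrane over cytosolic input in the HEL2-FTP strain (x axis, number of genes in brackets). Circles show the cytosolic fraction, squares the membrane fraction, and lines run from the lower to the upper quartile of genes. In the cytosol the median reached 1.70 in the class of 3 and above, where the membrane fraction had -0.24.

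Coding length went along with the change as well. The median was -1.17 for the 218 genes with coding sequences under 300 nt, -0.10 for the 1596 genes between 900 and 1500 nt, and 2.06 for the 306 genes of 3600 nt or more, of which 300 rose and 2 fell. The gradient was present on both sides of the membrane division. In the membrane-enriched set the median climbed from 0.84 (34 genes of 300 to 600 nt) to 2.50 (44 genes of 3600 nt or more), and among other genes from -1.21 (732 genes) to 1.86 (261 genes). In each length class above 300 nt the membrane-enriched set lay above the other genes. The rank correlation of the change with log2 coding length over 5714 genes was 0.54.

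The change also differed with the input level. Among the 1143 genes with the lowest input, up to 6.83 CPM, the median change was 1.16, and among the 1143 with the highest it was -0.54. Input is the denominator of the change, so the relation is partly built in and no conclusion is drawn from it. The lowest class starts at 0 CPM. A gene with 0 or few counts in both inputs, such as IRC13, could pass the filter on low counts only through other groups, the IPs among them. The rise of such a gene may then be partly built in. The length gradient was nevertheless present within classes of input level among genes outside the membrane-enriched set. Between 20 and 80 CPM the median ran from -1.47 in the shortest class to 1.61 in the longest, and at 80 CPM or more from -1.73 to 2.07 (102 genes). The class of 80 CPM or more has no upper limit of input. The YRF1 copies and the frames of 5268 nt described below have inputs at its level, so the 2.07 is uncertain. Genes of 2400 to 3600 nt had a median of 0.43 at that level. Whether level, length and membrane association act on the ratio separately was not tested.

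**Figure D2:**
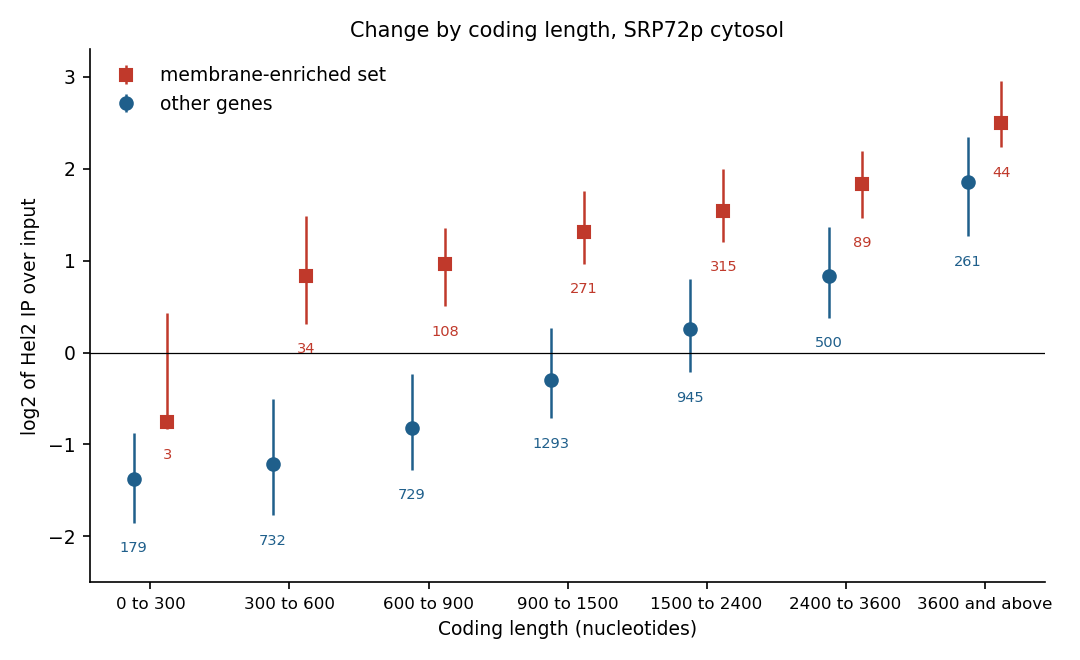
Median log2 change of Hel2 IP over input in SRP72p cytosol (y axis) by class of coding length in nucleotides (x axis), with lines from the lower to the upper quartile and the number of genes under each point. Squares are the genes of the membrane-enriched set and circles the other genes. Both series climb with length, to 2.50 and 1.86 in the longest class.

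The longest class also holds repeated sequences. The 24 frames with the most frequent length of that class, 5268 nt, which the sources used here do not name, lay between 558 and 1551 CPM in the inputs and all rose, by 2.07 to 2.44, and their joint share of counts went from 2.91% and 2.02% in the inputs to 12.1% and 10.1% in the IPs. How reads that match several frames were counted is not given in the sources used here, so these shares are uncertain. Without the YRF1 copies and the frames lacking a symbol in the RefSeq gene table, 245 genes of 3600 nt or more remained in the test. Of those, 239 rose, with a median log2 change of 1.87, and the share of counts on all 246 such genes, tested or not, was 2.20% and 2.09% in the inputs and 6.91% and 6.74% in the IPs.

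Genes are grouped below by the role of their products, and each list is described by its counts and median beside the median of 0.11 over all genes. No list was tested as a set. Of the 173 genes named from this comparison, 34 lost their call, all with changes of 1.34 or less in size, when library totals were taken from the RPKM values. Calls that rest on 1 library are marked, while losses with RPKM totals are marked only in part. Several lists contain paralogs of nearly the same sequence, whose counts cannot be told apart with certainty, and these are named where they occur. In the plot of list members, the flocculins, P-type ATPases and very large proteins lie at the top and the ribosomal proteins at the bottom.

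**Figure D3:**
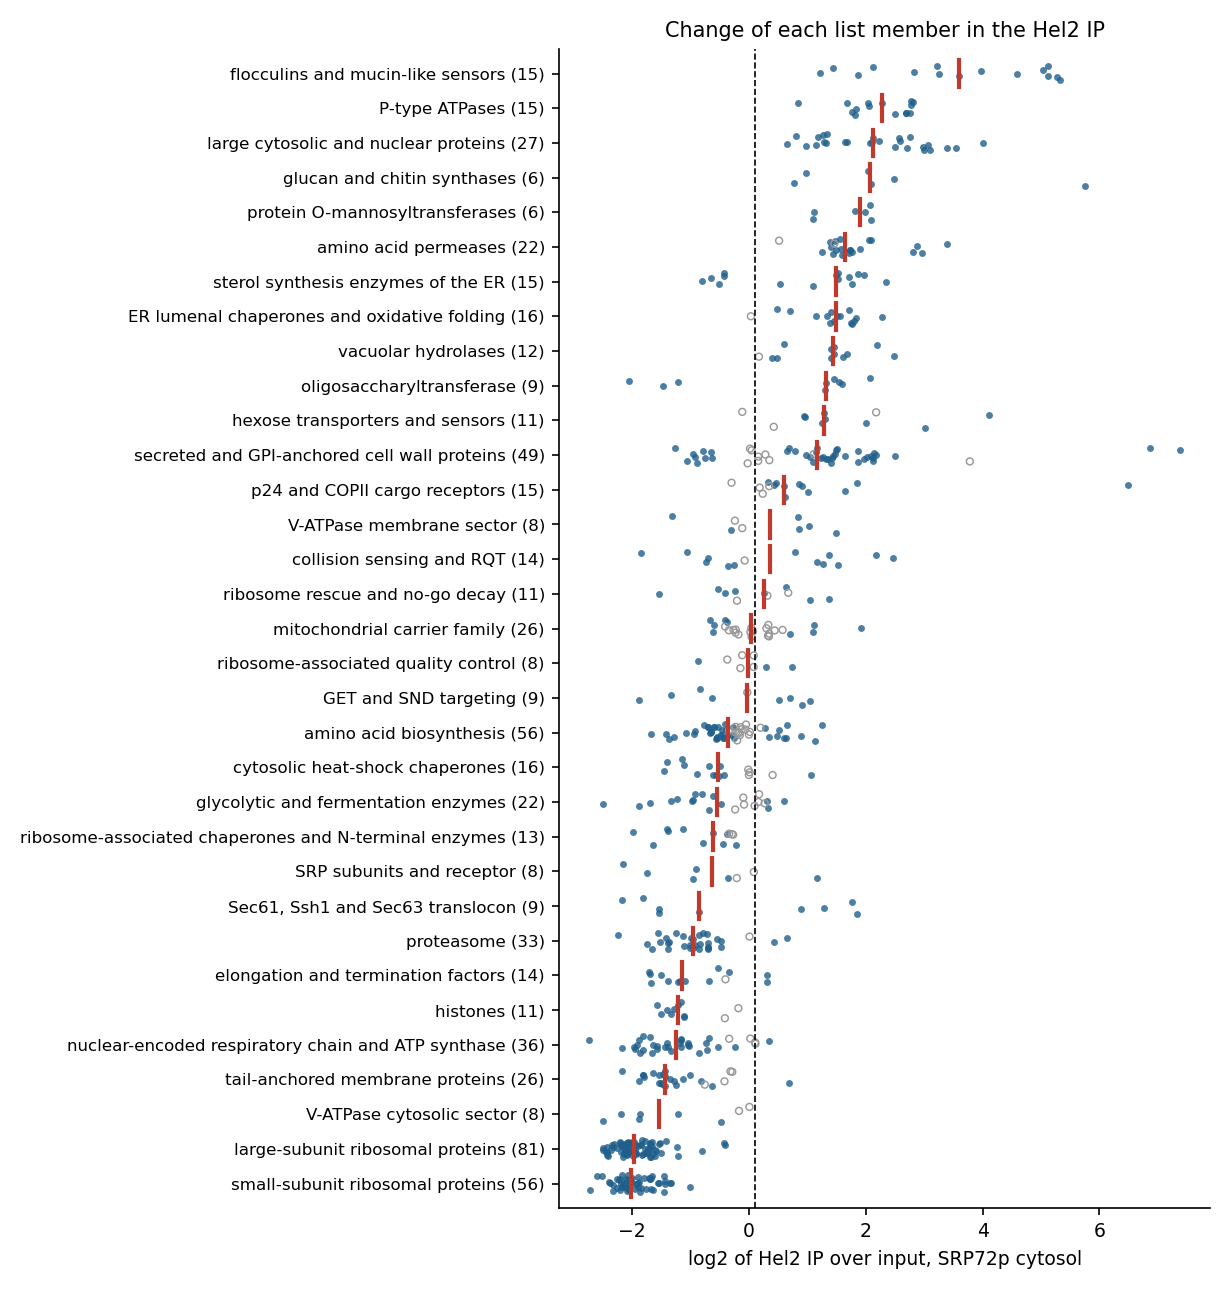
Log2 change of Hel2 IP over input in SRP72p cytosol (x axis) for each tested member of the gene lists (rows, number of members in brackets). Filled points passed the test at an edgeR adjusted p below 0.05, open points did not, the red bar is the list median and the dashed line the median of all genes. List medians run from -2.02 for small-subunit ribosomal proteins to 3.60 for flocculins and mucin-like sensors.

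SRP itself was examined first. SRP72 (YPL210C), the subunit supplied from the plasmid, had 136 and 138 CPM in the inputs and 112 and 125 CPM in the IPs. The IP values lie below the inputs by little, and the log2 change of -0.21 did not pass the test (SE 0.12, edgeR adjusted p 0.126). Among the 8 SRP subunits and receptor genes, 1 rose and 5 fell, and the median was -0.63. SEC65, whose product helps to place Srp54 on the SRP RNA, had 70.5 and 81.6 CPM in the inputs and 17.7 and 16.7 CPM in the IPs. Its IP values are far below both inputs and it fell by 2.15 (SE 0.13, edgeR adjusted p 3.43e-09). SRP54, which recognises the signal sequence and binds GTP, fell by 0.90 (SE 0.13, edgeR adjusted p 1.86e-05), and SRP14 fell by 1.74 (SE 0.30, edgeR adjusted p 0.000127). The call of SRP54 was lost with totals implied by RPKM (edgeR adjusted p 0.21). The gene that rose encodes the membrane-anchored beta subunit of the SRP receptor, and had 7.70 and 4.72 CPM in the inputs and 14.7 and 12.9 CPM in the IPs. It rose by 1.17 (SE 0.29, edgeR adjusted p 0.00257), but without input replicate 2 its change was 0.74 and did not pass the test (edgeR adjusted p 0.0651). GIT1, a plasma membrane transporter whose promoter drives SRP72 in the other plasmid strain, had 1.71 and 4.04 CPM in the inputs and 11.4 and 5.17 CPM in the IPs. GIT1 rose by 1.39 (SE 0.45, edgeR adjusted p 0.0132), and the call was lost without input replicate 1 or IP replicate 1 (edgeR adjusted p 0.12 and 0.179). Its change ran from 0.78 to 2.09 over the settings tried.

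The translocon list divided by the size of the subunit. SEC61, the pore through which chains enter the ER, lies on chromosome XII, positions 875736 to 877178 of assembly R64, and had 47.6 and 38 CPM in the inputs and 138 and 169 CPM in the IPs. Both IPs are above both inputs, and SEC61 rose by 1.85 (SE 0.13, edgeR adjusted p 1.73e-08). SSH1, the pore of an alternative channel, rose by 1.77 (SE 0.18, edgeR adjusted p 6.8e-07), and SEC63, which couples the channel to the chaperone Kar2, rose by 1.28 (SE 0.17, edgeR adjusted p 1.22e-05). The small subunits went the other way. SSS1, the gamma subunit, had 85.6 and 85.6 CPM in the inputs and 19.4 and 28.4 CPM in the IPs and fell by 1.82 (SE 0.17, edgeR adjusted p 3.32e-07), the beta subunits SBH1 and SBH2 fell by 1.54 and by 1.55 on the log2 scale, and SEC72 fell by 2.18 (SE 0.21, edgeR adjusted p 4.57e-07). Of the 9 members 4 rose and 5 fell, and the 3 members of at least 900 nt all rose (median 1.77) while 5 of the 6 shorter ones fell (median -1.54). The exception was SEC66, of 621 nt, which rose by 0.88 (SE 0.26, edgeR adjusted p 0.00773), a call lost without input replicate 2 or IP replicate 2 (edgeR adjusted p 0.168 and 0.265).

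Other routes into the membrane gave no common direction. Of 9 GET and SND genes, which act in the insertion of tail-anchored proteins and in an SRP-independent route, 4 rose and 4 fell, with a median of -0.03 that changed sign with the scaling (from -0.08 to 0.23). SND1, a ribosome-bound factor of the SND route, rose by 1.05 (SE 0.15, edgeR adjusted p 2.68e-05). GET3, the ATPase that carries tail-anchored proteins, fell by 1.34 (SE 0.10, edgeR adjusted p 2.79e-08), and its partner GET4 fell by 1.88 (SE 0.20, edgeR adjusted p 1.25e-06).

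Enzymes that glycosylate proteins in the ER were higher in the IP, again with the smallest subunits apart. STT3, the catalytic subunit of oligosaccharyltransferase, lies on chromosome VII, positions 452404 to 454560, and had 30.5 and 30.8 CPM in the inputs and 129.9 and 128 CPM in the IPs. Both IPs lie far above both inputs, and STT3 rose by 2.07 (SE 0.10, edgeR adjusted p 1e-09). OST3, WBP1 and OST1 rose by 1.59, 1.55 and 1.46. OST4, a subunit of 111 nt coding length, had 15.4 and 12.1 CPM in the inputs and 2.34 and 3.99 CPM in the IPs and fell by 2.06 (SE 0.47, edgeR adjusted p 0.0013). OST5 and OST2, of 261 and 393 nt, fell by 1.47 and by 1.21. Of the 9 subunits 6 rose and 3 fell, with a median of 1.32. All 6 protein O-mannosyltransferases, which attach the first mannose to secreted proteins, rose. PMT1 had 33.7 and 27.4 CPM in the inputs and 130.2 and 124 CPM in the IPs and rose by 2.06 (SE 0.12, edgeR adjusted p 2.85e-09), and the others lay between 1.10 for PMT5 and 2.09 for PMT4. PMT5 did not pass without input replicate 2 (edgeR adjusted p 0.0633).

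Folding helpers of the ER lumen followed. KAR2, the Hsp70 that pulls chains through Sec61 and folds them, had 184 and 169 CPM in the inputs and 591 and 615 CPM in the IPs. Its IP levels were close to each other and far above the inputs, and KAR2 rose by 1.77 (SE 0.11, edgeR adjusted p 4.01e-09). PDI1, the disulfide isomerase, rose by 1.34 (SE 0.13, edgeR adjusted p 3.22e-07), and ERO1, which reoxidises it, rose by 1.38 (SE 0.11, edgeR adjusted p 4.65e-08). Of 16 members 15 rose, none fell and 1 did not pass the test, and the median was 1.48. ROT1 and SIL1, with changes of 0.49 and 0.70, were at the lower end of those that rose and did not pass without input replicate 1 (edgeR adjusted p 0.0501 and 0.158), SIL1 also not without IP replicate 1 (0.0517). CNE1, the calnexin homolog, was at the upper end with 2.27 from inputs of only 1.43 and 4.49 CPM, a change of 1.67 without input replicate 1 and 3.29 without input replicate 2.

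Cargo receptors between ER and Golgi had a lower median. Of 15 p24 and COPII receptors 11 rose and none fell, with a median of 0.61. ERV46 had 22.5 and 20.9 CPM in the inputs and 71.1 and 64.8 CPM in the IPs and rose by 1.65 (SE 0.15, edgeR adjusted p 2.29e-07). EMP24, a p24 protein, rose by 0.61 (SE 0.12, edgeR adjusted p 0.000363). RRT6 had 0 counts in both inputs and 7 counts in each IP.

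Cell wall proteins divided in part with their size. Of 49 secreted and GPI-anchored proteins tested out of 50 listed, 31 rose and 9 fell, with a median of 1.17. The joint share of counts on the 50 genes went the other way. It was 2.701% and 2.969% in the inputs and 1.915% and 2.325% in the IPs. CRR1, a glycosidase-like protein of the spore wall, had 0 counts in both inputs and 13 and 13 counts in the IPs. EGT2, a glucanase-like protein of daughter cells, had 63.0 and 64.9 CPM in the inputs and 380.3 and 345 CPM in the IPs and rose by 2.50 (SE 0.09, edgeR adjusted p 3.33e-10). KRE9, a factor in beta-glucan assembly, rose by 2.18 (SE 0.13, edgeR adjusted p 4.78e-09), and GAS1, a glucanosyltransferase, rose by 1.17 (SE 0.11, edgeR adjusted p 2.46e-07). Some abundant wall proteins were lower in the IP. CCW12 had 9986 and 11628 CPM in the inputs and 5677 and 7228 CPM in the IPs and fell by 0.74 (SE 0.14, edgeR adjusted p 0.000309), and SED1, CWP2 and SPI1 fell by 0.92, 1.06 and 1.26. The calls of CCW12, SED1 and CWP2 were lost with totals implied by RPKM (edgeR adjusted p 0.462, 0.287 and 0.174). Of the 35 members of at least 900 nt, 30 rose and 4 fell. Of the 14 shorter ones 1 rose and 5 fell, the others did not pass the test, and the median was 0.03.

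The highest median of any list was that of the flocculins and mucin-like sensors, long cell surface proteins with serine- and threonine-rich repeats. All 15 rose, with a median of 3.60. FLO1, a lectin of cell-cell adhesion on chromosome I, positions 203403 to 208016, had 48.5 and 42.9 CPM in the inputs and 1593 and 1579 CPM in the IPs. FLO1 rose by 5.12 (SE 0.36, edgeR adjusted p 2.04e-08), and its near relatives FLO9 and FLO5 changed by 5.28 and 5.13. These copies share sequence, so the value of each is uncertain. FLO11, an adhesin of another type, had 0.571 and 4.27 CPM in the inputs and 94.8 and 115 CPM in the IPs and rose by 5.32 (SE 0.58, edgeR adjusted p 1.41e-06). Its inputs differ several-fold, and the change was 4.55 without input replicate 1 and 7.39 without input replicate 2. HKR1 and MSB2, mucin-like sensors of the osmotic stress pathway, had wide gaps between groups. HKR1 had 55.9 and 48.8 CPM in the inputs and 744 and 521 CPM in the IPs and rose by 3.60 (SE 0.34, edgeR adjusted p 3.35e-07), and MSB2 had 16.3 and 13.3 CPM in the inputs and 149 and 133 CPM in the IPs and rose by 3.26 (SE 0.22, edgeR adjusted p 1.1e-08). The smallest changes were in cell wall sensors, with SLG1 (also called WSC1) at 1.21 and MTL1 at 1.44. The list's joint share of counts was 0.0241% and 0.0218% in the inputs and 0.481% and 0.448% in the IPs.

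**Figure D4:**
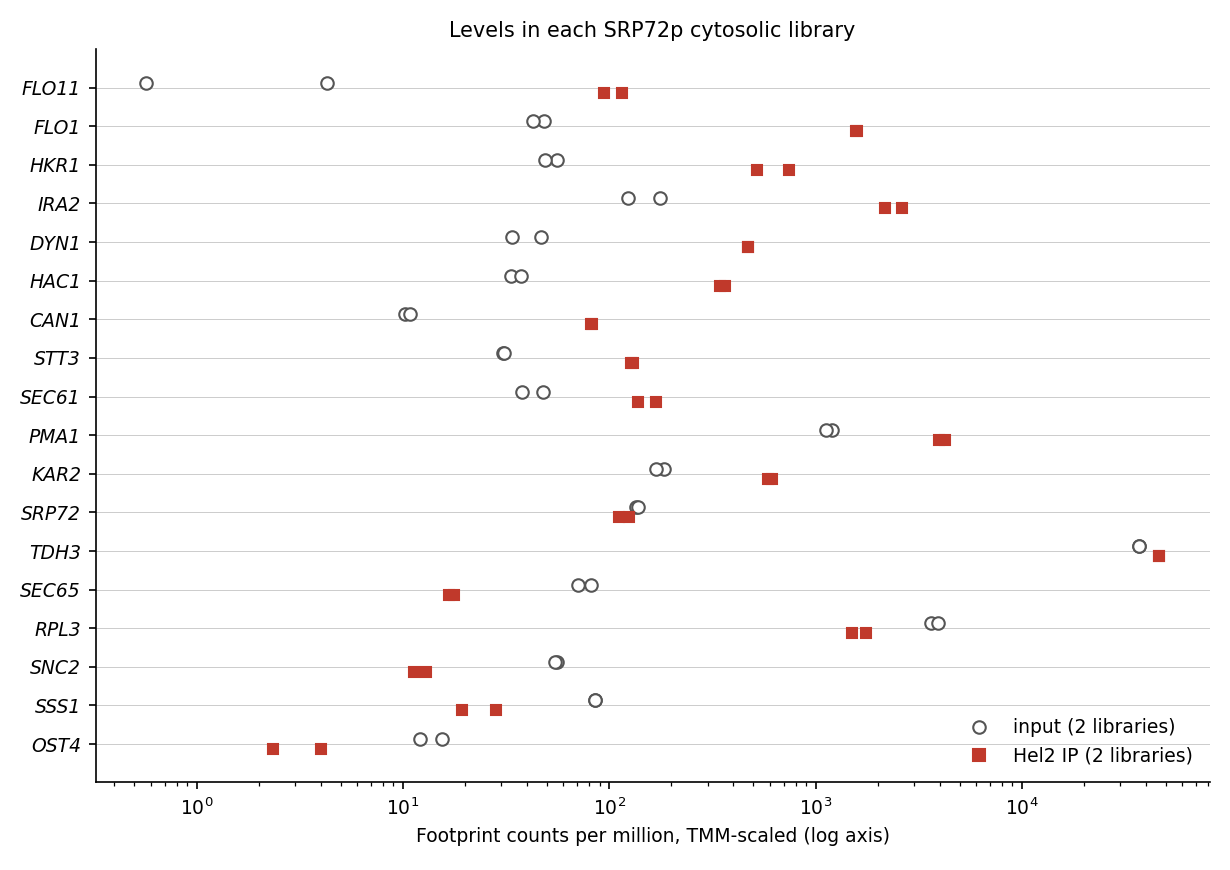
Levels of 18 genes in each SRP72p cytosolic library, in TMM-scaled CPM on a log axis. Open circles are the 2 inputs and filled squares the 2 Hel2 IPs. For FLO1 the inputs lie at 48.5 and 42.9 CPM and the IPs at 1593 and 1579 CPM, for SRP72 the groups lie side by side, and for OST4, SSS1 and SNC2 the IPs are the lower group.

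Transporters with many membrane segments rose with few exceptions. Of 22 amino acid permeases 20 rose and none fell, with a median of 1.65. CAN1, the arginine permease, had 10.3 and 10.8 CPM in the inputs and 82.8 and 81.5 CPM in the IPs, and CAN1 rose by 2.96 (SE 0.33, edgeR adjusted p 1.63e-06). PUT4, for proline, rose by 2.87 (SE 0.17, edgeR adjusted p 3.49e-09), and GAP1, the general permease, rose by 1.40 (SE 0.09, edgeR adjusted p 1.24e-08). The highest value of the list was that of MMP1, for S-methylmethionine, which rose by 3.38 (SE 0.49, edgeR adjusted p 2.63e-05) from inputs of under 1 CPM. The genotype lists a can1 allele, and its effect on these counts was not tested. Of 19 hexose transporters and sensors 11 passed the filter on low counts, and 8 of those rose. Genes with inputs as low as those of MMP1 and RGT2 passed that filter only through other groups. Their rises may be partly built in. RGT2, a glucose sensor, had 2.00 and 0.449 CPM in the inputs and 24.0 and 16.7 CPM in the IPs and rose by 4.11 (SE 0.44, edgeR adjusted p 1.15e-06), with changes of 5.35 without input replicate 1 and 3.22 without input replicate 2. HXT3 had 197 and 199.7 CPM in the inputs and 482 and 497 CPM in the IPs and rose by 1.30 (SE 0.12, edgeR adjusted p 1.99e-07), and HXT2 rose by 2.00 (SE 0.17, edgeR adjusted p 1.3e-07). The copies HXT6 and HXT7 are near-identical and changed by 1.26 and 1.28.

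All 15 P-type ATPases rose, with a median of 2.27. PMA1, the proton pump of the plasma membrane and one of the most abundant membrane proteins, had 1203 and 1118 CPM in the inputs and 3973 and 4219 CPM in the IPs. Its groups are far apart, and PMA1 rose by 1.82 (SE 0.12, edgeR adjusted p 8.02e-09). SPF1, an ATPase of the ER membrane, had 41.4 and 33.0 CPM in the inputs and 231 and 244 CPM in the IPs and rose by 2.68 (SE 0.11, edgeR adjusted p 5.84e-10). The lipid flippases DNF1, DNF2 and DRS2 rose by 2.77, 2.50 and 2.05. The sodium pumps ENA1, ENA2 and ENA5, which are near-identical copies, changed by 2.75, 2.80 and 2.77.

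The vacuolar proton pump, the V-ATPase, showed the division within one complex. In its membrane sector 4 of 8 genes rose and 2 fell. STV1 and VPH1, the large subunits with membrane segments, rose by 1.49 and 0.83, while VMA9, a small hydrophobic subunit of 222 nt, fell by 1.32 (SE 0.16, edgeR adjusted p 4.14e-06). In the cytosolic sector none of 8 rose and 6 fell, with a median of -1.54. VMA4 had 613 and 619 CPM in the inputs and 121 and 148 CPM in the IPs and fell by 2.19 (SE 0.12, edgeR adjusted p 2.33e-09), and VMA10 fell by 2.49 (SE 0.20, edgeR adjusted p 6.85e-08).

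Glucan and chitin synthases, large enzymes of the plasma membrane, all rose (6 of 6, median 2.07). FKS1, the glucan synthase, had 321 and 286 CPM in the inputs and 1294 and 1208 CPM in the IPs and rose by 2.04 (SE 0.12, edgeR adjusted p 3.36e-09). Its relative FKS3 had 1 count in each input and 49 and 56 counts in the IPs, a ratio of 57.6 with a counting interval of 15.6 to 482.

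Enzymes of sterol synthesis in the ER divided, with 10 of 15 higher and 5 lower (median 1.49). HMG1, HMG-CoA reductase, rose by 2.34 (SE 0.14, edgeR adjusted p 3.74e-09), and ERG11, lanosterol demethylase, had 73.9 and 77.5 CPM in the inputs and 286 and 308 CPM in the IPs and rose by 1.97 (SE 0.09, edgeR adjusted p 1.05e-09). ERG1, squalene epoxidase, had 512 and 506 CPM in the inputs and 270.1 and 314 CPM in the IPs and fell by 0.80 (SE 0.10, edgeR adjusted p 8.65e-06), and ERG9, squalene synthase, fell by 0.51 (SE 0.11, edgeR adjusted p 0.000765). Neither fall passed the test with totals implied by RPKM (edgeR adjusted p 0.331 and 0.624). Among 12 vacuolar hydrolases 11 rose and none fell, with a median of 1.43. ATH1, the acid trehalase, had 4.85 and 2.47 CPM in the inputs and 23.4 and 16.9 CPM in the IPs and rose by 2.48 (SE 0.33, edgeR adjusted p 1.27e-05). PHO8, a phosphatase with a membrane anchor, rose by 2.19 (SE 0.14, edgeR adjusted p 9.49e-09), and PRB1, a protease with a cleaved signal sequence, had 534 and 553 CPM in the inputs and 1388 and 1595 CPM in the IPs and rose by 1.46 (SE 0.12, edgeR adjusted p 5.93e-08). The member not called was APE1, an aminopeptidase, while AMS1 and LAP3 were among the 11 that rose. APE1 had 346 and 351 CPM in the inputs and 383 and 402 CPM in the IPs. The change of APE1 was 0.17 and did not pass the test (edgeR adjusted p 0.199).

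Tail-anchored membrane proteins, whose single segment at the end of the chain leaves the ribosome only after synthesis stops, fell as a rule. Of 26, 21 fell and 1 rose, with a median of -1.44. SNC2, a vesicle SNARE of the plasma membrane, had 55.6 and 54.8 CPM in the inputs and 11.4 and 12.9 CPM in the IPs. Both IPs lie well under both inputs, and SNC2 fell by 2.17 (SE 0.20, edgeR adjusted p 2.06e-07). SSO2, its partner at the plasma membrane, had 166 and 153 CPM in the inputs and 45.7 and 44.4 CPM in the IPs and fell by 1.82 (SE 0.11, edgeR adjusted p 6.49e-09). SED5, the Golgi SNARE, fell by 1.13 (SE 0.18, edgeR adjusted p 7.46e-05). The member that rose was GEM1, a GTPase of the mitochondrial outer membrane, which rose by 0.69 (SE 0.19, edgeR adjusted p 0.00497), a call lost without input replicate 1 (edgeR adjusted p 0.105). The list shares SBH1, SBH2 and SSS1 with the translocon, and 21 of its 26 coding sequences are shorter than 900 nt, of which 20 fell.

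Ribosomal proteins gave the most uniform falls. All 56 small-subunit genes and all 81 large-subunit genes fell, with medians of -2.02 and -1.98. RPS10A had 743 and 742 CPM in the inputs and 111 and 115 CPM in the IPs and fell by 2.72 (SE 0.15, edgeR adjusted p 1.89e-09), RPL19A fell by 2.50 (SE 0.12, edgeR adjusted p 1.05e-09), and RPL3 had 3645 and 3941 CPM in the inputs and 1506 and 1756 CPM in the IPs and fell by 1.22 (SE 0.13, edgeR adjusted p 1.27e-06). RPL4A and RPL4B, among the longest coding sequences of the list at 1089 nt, fell by only 0.43 and by 0.41. Most of these genes have a near-identical copy, which makes the value of a single gene uncertain. The share of all counts on the 137 genes was 17.3% (17.3% to 17.4%) and 18.4% (18.3% to 18.4%) in the inputs and 4.71% (4.69% to 4.73%) and 5.38% (5.36% to 5.40%) in the IPs.

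Translation factors went down in most cases, with 11 of 14 lower and 2 higher (median -1.14). TEF1 and TEF2, identical copies of elongation factor 1A, had changes of -1.71 and -1.69. Those that rose were EFT2 and EFT1, copies of elongation factor 2, and EFT2 rose by 0.31 (SE 0.11, edgeR adjusted p 0.0273), a call lost without input replicate 1, input replicate 2 or IP replicate 2 (edgeR adjusted p 0.219, 0.151 and 0.11). SUP45, the release factor, had 231 and 230.3 CPM in the inputs and 104 and 111 CPM in the IPs and fell by 1.10 (SE 0.11, edgeR adjusted p 4.05e-07), and HYP2, the factor eIF5A, fell by 1.22 (SE 0.14, edgeR adjusted p 2.79e-06). Chaperones and enzymes at the ribosome's exit site fell in 10 of 13 cases and none rose. EGD1, a subunit of the nascent chain complex NAC, had 659.5 and 712 CPM in the inputs and 149 and 198 CPM in the IPs and fell by 1.98 (SE 0.12, edgeR adjusted p 6.28e-09), and ZUO1, a J protein at the ribosome, fell by 1.39 (SE 0.13, edgeR adjusted p 2.08e-07).

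The most abundant cytosolic enzymes moved less than the ribosomal proteins. Of 22 glycolytic and fermentation enzymes 3 rose and 12 fell, with a median of -0.55. PDC6, a minor pyruvate decarboxylase related in sequence to PDC1, had 193 and 171 CPM in the inputs and 30.7 and 33.4 CPM in the IPs and fell by 2.50 (SE 0.17, edgeR adjusted p 1.63e-08). PYK2, a minor pyruvate kinase, rose by 0.60 (SE 0.12, edgeR adjusted p 0.000702). GPM1, phosphoglycerate mutase, had 9175 and 8694 CPM in the inputs and 2652 and 2838 CPM in the IPs and fell by 1.70 (SE 0.12, edgeR adjusted p 1.44e-08). FBA1, aldolase, fell by 1.34 (SE 0.12, edgeR adjusted p 2.35e-07). PFK1, a subunit of phosphofructokinase, had 1120.2 and 1280.2 CPM in the inputs and 1505 and 1499 CPM in the IPs and rose by 0.32 (SE 0.11, edgeR adjusted p 0.0149), a call lost without input replicate 1 (edgeR adjusted p 0.276). Together these 22 genes held 23.0% and 22.9% of counts in the inputs and 17.1% and 18.2% in the IPs. Heat-shock chaperones of the cytosol fell in 11 of 16 cases, with STI1 at -1.45 and HSC82 at -1.15. HSP42, a small heat-shock protein that sorts aggregates, was the single riser, with 1013 and 1078 CPM in the inputs and 2087 and 2260.1 CPM in the IPs, and it rose by 1.06 (SE 0.12, edgeR adjusted p 1.7e-06).

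Mitochondrial proteins made in the cytosol divided by family. Of 36 nuclear-encoded respiratory and ATP synthase subunits, most of them very small, 31 fell and 1 rose (median -1.26). ATP17 had 163 and 155 CPM in the inputs and 22.0 and 25.4 CPM in the IPs and fell by 2.74 (SE 0.19, edgeR adjusted p 1.72e-08), and QCR7 fell by 2.17 (SE 0.12, edgeR adjusted p 2.22e-09). The member that rose was NDE1, an NADH dehydrogenase, which rose by 0.34 (SE 0.09, edgeR adjusted p 0.00475), a call lost without either input (edgeR adjusted p 0.0741 and 0.0501). The carriers of the inner membrane, which have several membrane segments, gave 4 higher, 5 lower and 17 of 26 that did not pass the test. Their median of 0.04 ran from -0.01 to 0.27 under other scalings. AAC1, a minor ADP/ATP carrier, had 1.14 and 1.12 CPM in the inputs and 5.34 and 3.52 CPM in the IPs and rose by 1.92 (SE 0.53, edgeR adjusted p 0.00545). ORT1, for ornithine, fell by 0.67 (SE 0.28, edgeR adjusted p 0.0471), a call lost without input replicate 2, IP replicate 1 or IP replicate 2 (edgeR adjusted p 0.18, 0.0788 and 0.199). AGC1, the longest carrier at 2709 nt, rose by 1.11 (SE 0.19, edgeR adjusted p 0.000153), and PET9, the main ADP/ATP carrier, had 521 and 551 CPM in the inputs and 343 and 353 CPM in the IPs and fell by 0.62 (SE 0.09, edgeR adjusted p 3.79e-05). Of the 18 genes encoded in mitochondrial DNA, which cytosolic ribosomes do not translate, none fell and 1 passed the test upward. COX1, of cytochrome oxidase, had 314 and 232 CPM in the inputs and 611 and 524 CPM in the IPs, where the groups lie apart but the change of 1.06 did not pass (edgeR adjusted p 0.382). COX1 did pass in 2 of 13 other settings, and its spread was estimated with the membrane inputs in the fit. The joint share of the 18 genes was 0.425% and 0.270% in the inputs and 0.598% and 0.428% in the IPs, so that the higher input and the lower IP are nearly equal. The single call was VAR1, with 86.2 and 62.2 CPM in the inputs and 363 and 272 CPM in the IPs, and that call was lost whichever of the 4 libraries was left out (edgeR adjusted p 0.0607 to 0.181).

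Proteasome subunits fell in 30 of 33 cases. SEM1, the smallest, fell by 2.24 (SE 0.22, edgeR adjusted p 3.96e-07), and RPN6, a lid subunit, had 197 and 192 CPM in the inputs and 63.4 and 59.0 CPM in the IPs and fell by 1.67 (SE 0.10, edgeR adjusted p 6.26e-09). The 2 that rose are the 2 largest, RPN1 and RPN2, with coding lengths of 2982 and 2838 nt and changes of 0.43 and 0.66. Histone genes fell in 9 of 11 cases, among them HTB1, which fell by 1.51 (SE 0.10, edgeR adjusted p 7.2e-09), and HTA2, which fell by 1.57 (SE 0.13, edgeR adjusted p 1.06e-07). Amino acid biosynthesis enzymes gave 10 higher and 31 lower among 56. GLT1 and ARO1, of 6438 and 4767 nt, had the largest rises with 1.25 and 1.12, and MET14, of 609 nt, the largest fall with -1.67.

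Very large proteins of the cytosol and nucleus rose without exception, 27 of 27, with a median of 2.13. IRA2, a regulator of Ras, is translated from a frame on chromosome XV, positions 171070 to 180309 and had 177 and 123 CPM in the inputs and 2632 and 2175 CPM in the IPs. The IPs exceed the inputs many times over, and IRA2 rose by 4.00 (SE 0.39, edgeR adjusted p 4.06e-07). DYN1, the dynein heavy chain, had 46.8 and 33.9 CPM in the inputs and 469 and 471 CPM in the IPs and rose by 3.55 (SE 0.24, edgeR adjusted p 1.15e-08). REA1, a ribosome assembly ATPase and at 14733 nt the longest frame of the list, had 185 and 194 CPM in the inputs and 1499.5 and 1506 CPM in the IPs and rose by 2.99 (SE 0.15, edgeR adjusted p 1.35e-09). PRP8, the core of the spliceosome, rose by 2.99 (SE 0.13, edgeR adjusted p 7.06e-10). Length alone did not order them. FAS2 and FAS1, the subunits of fatty acid synthase with coding lengths of 5664 and 6156 nt and mean inputs of 1376 and 1483 CPM, rose by 1.69 and 0.65, and SEC7, of 6030 nt, by 0.80. The difference between FAS1 and FAS2 was not tested as such, but their intervals of 1.48 to 1.89 and 0.45 to 0.86 do not overlap.

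Genes of collision sensing were measured like any other message. HEL2 had 77.9 and 74.8 CPM in the inputs and 59.4 and 59.2 CPM in the IPs and fell by 0.36 (SE 0.12, edgeR adjusted p 0.0128). That call was lost without IP replicate 2 (edgeR adjusted p 0.0519) and without a filter (0.311) or with totals implied by RPKM (0.837). CUE3 and SLH1, subunits of the complex that splits collided ribosomes, rose: CUE3 had 16.3 and 21.1 CPM in the inputs and 95.5 and 113 CPM in the IPs and rose by 2.47 (SE 0.16, edgeR adjusted p 1.12e-08), and SLH1, of 5904 nt, rose by 2.18 (SE 0.13, edgeR adjusted p 3.06e-09). GCN1 and GCN2, which sense collisions in the integrated stress response, rose by 1.26 and 1.52. MBF1, which keeps frame at stalled ribosomes, had 793 and 689.8 CPM in the inputs and 192 and 219 CPM in the IPs and fell by 1.85 (SE 0.12, edgeR adjusted p 1.11e-08), and ASC1, a ribosomal protein needed for Hel2's action at collisions, whose gene holds the snoRNA SNR24, fell by 1.06 (SE 0.12, edgeR adjusted p 3.07e-06). Of the 14 genes 7 rose and 6 fell. The 8 genes of the ribosome-associated quality control complex gave 2 higher and 1 lower, with a median of -0.02 whose sign depended on the scaling. RKR1, the ligase known as Ltn1, rose by 0.74 (SE 0.15, edgeR adjusted p 0.000708), and UFD1, a cofactor of Cdc48, fell by 0.87 (SE 0.14, edgeR adjusted p 8.12e-05). Of 11 rescue and no-go decay genes 4 rose and 4 fell. XRN1, the exonuclease, rose by 1.05 (SE 0.09, edgeR adjusted p 1.24e-07), and SKI3, of the Ski complex, rose by 1.37 (SE 0.10, edgeR adjusted p 1.88e-08). DOM34, which opens stalled ribosomes, had 34.8 and 41.1 CPM in the inputs and 11.0 and 14.8 CPM in the IPs and fell by 1.54 (SE 0.19, edgeR adjusted p 4.17e-06).

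The rule for naming genes also took the 10 largest rises and falls among genes with at least 10 CPM in the higher group. The 10 rises all came from frames with few or no input counts. IRC13 and AAD15 had 0 counts in both inputs, and against a floor of 3 counts over the inputs they were at least 50.8-fold and at least 28.2-fold higher. AAD15 has near-identical relatives. YAL065C had 1 input count and a ratio of 169 with a counting interval of 29.9 to 6716, and TIR4, a cell wall mannoprotein, also had 1 input count, with a ratio of 135 (23.8 to 5373). YMR046W-A, YGR122C-A, YLR157W-D and LPX2 had 2 input counts and ratios of 59.8, 59.3, 53.2 and 49.4, with lower limits between 13.3 and 16.2. FKS3, given above, had 2 as well. YLR465C had 2 and 1.8 CPM in the inputs and 92.2 and 104 CPM in the IPs, and it rose by 5.69 (SE 0.36, edgeR adjusted p 6.13e-09).

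The 10 falls were in short frames. EGO2 had 10.6 and 15.7 CPM in the inputs and 1.34 and 2.11 CPM in the IPs and fell by 2.88 (SE 0.39, edgeR adjusted p 1.21e-05). RRP17, MRPS17 and RPA12, for a ribosome assembly nuclease, a mitochondrial ribosomal protein and a subunit of RNA polymerase I, fell by 2.67, by 2.61 and by 2.56. DYN2, the dynein light chain, had 22.8 and 44.3 CPM in the inputs and 5.34 and 5.40 CPM in the IPs and fell by 2.66 (SE 0.29, edgeR adjusted p 1.66e-06), in the direction opposite to the heavy chain DYN1. ATX1, a copper chaperone, fell by 2.53 (SE 0.36, edgeR adjusted p 2.47e-05), and the rest were ATP17, RPS10A, RPS10B and RPS21B.

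Some further genes are named here because their values were large, and were picked after those values were seen. The 8 copies of YRF1, a helicase of the chromosome ends, are near-identical and all rose, by 4.35 to 4.41. Their inputs were 154 to 246 CPM and their IPs 3671 to 4722 CPM, and their joint share of counts went from 0.199% and 0.162% to 3.61% and 3.57%. HAC1, the transcription factor of the unfolded protein response, whose unspliced message is held on ribosomes without completing synthesis, had 33.4 and 37.5 CPM in the inputs and 364 and 345 CPM in the IPs. Both IPs lie far above both inputs, and HAC1 rose by 3.32 (SE 0.32, edgeR adjusted p 3.74e-07). SEC16, a scaffold of ER exit sites of 6588 nt, had 117 and 129 CPM in the inputs and 1231 and 1351 CPM in the IPs and rose by 3.39 (SE 0.12, edgeR adjusted p 3.33e-10). HIS3 had 543 and 516 CPM in the inputs and 6021 and 5035 CPM in the IPs and rose by 3.38 (SE 0.17, edgeR adjusted p 1.64e-09), although its coding length is 663 nt. In the strain labelled GIT1p it had 24.3 and 21.5 CPM in the GIT1p inputs and 32.3 and 30.6 CPM in the GIT1p IPs, and, as given above, this does not follow the labelled genotypes. URA3, which the genotype lists as a mutant allele, had 44.8 and 65.4 CPM in the inputs and 26.7 and 32.9 CPM in the IPs and fell by 0.88 (SE 0.17, edgeR adjusted p 0.000429).

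Genes of mating, expressed by cell type, divided as well. Of 7 MATa-specific genes 3 rose and 2 fell. STE6, the transporter that exports a-factor, had 29.7 and 18.2 CPM in the inputs and 99.8 and 97.5 CPM in the IPs and rose by 2.06 (SE 0.16, edgeR adjusted p 4.24e-08), and STE2, given above, rose by 1.26 (SE 0.10, edgeR adjusted p 6.87e-08). MFA1, for the a-factor precursor, of 111 nt, fell by 1.26 (SE 0.33, edgeR adjusted p 0.00363), with a change of -2.14 without IP replicate 2. Of the 3 MATalpha-specific genes tested 1 rose, SAG1, the alpha-agglutinin, with 2.00 and 0 CPM in the inputs and 13.4 and 8.22 CPM in the IPs, and it rose by 3.54 (SE 0.80, edgeR adjusted p 0.00128). That value rests on the 7 counts of input replicate 1, since the change was 2.30 without input replicate 2, and 9.05 without input replicate 1, where the remaining input holds 0 counts and the fitted value depends on the prior count.

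Frames that overlap genes for non-coding RNA gave large values of another kind. YOR072W-B shares 83 nt with a tRNA gene and had 73.9 and 53.7 CPM in the inputs and 2623 and 1808 CPM in the IPs, and YNL042W-B shares 84 nt with another and had 119 and 78.2 CPM in the inputs and 2759 and 1819 CPM in the IPs. They changed by 5.12 and 4.54, and IP replicate 1 lies above replicate 2 for both. Of 11 frames overlapping a snoRNA gene, 3 rose and 7 fell. YGL088W (SNR10) and YJL047C-A (SNR60) rose by 5.16 and 4.49, and IRC13 overlaps SNR17A. Whether these reads come from ribosomes or from the non-coding RNA was not tested.

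The membrane fraction of the same strain gave a different picture for membrane genes. Its IP and input libraries are other libraries than the cytosolic ones, but all share the same fit, and the test of the difference uses both. Nothing in the labels says whether the fractions came from separate cultures. The IP/input ratio differed between fractions for 1310 genes (22.9%), 484 (8.47%) higher and 826 (14.5%) lower at the membrane. Other scalings gave 715 higher and 762 lower (DESeq2 size factors), 319 and 911 (library size alone), and 0 and 559 (totals implied by RPKM), with the median of all genes moved by 0.11, by -0.10 and by -0.48. Single libraries moved the division as well. It was 798 higher and 739 lower without cytosolic input replicate 1, 672 and 640 without cytosolic input replicate 2, and 293 and 702 without cytosolic IP replicate 1. Without membrane IP replicate 1 it was 323 and 705, and without membrane input replicate 1 or 2 it was 530 and 785 or 607 and 993. Of the 864 membrane-enriched genes none was higher and 594 lower at the membrane, and their median ratio was -0.11 there against 1.45 in the cytosol. Without membrane input replicate 1 the count was 569, and without replicate 2 it was 616. The other 4639 genes gave 481 higher and 222 lower, which became 519 and 213 without membrane input replicate 1 and 603 and 356 without replicate 2.

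Most lists of secretory and membrane proteins were lower at the membrane, also where the median there stayed above 0. The flocculins went from 3.60 to 1.57, with 6 of 15 lower and 2 higher by the test of the difference, and their median difference of -0.39 became 0.15 without membrane input replicate 1. The glucan and chitin synthases went from 2.07 to 1.06 (3 of 6 lower) and the P-type ATPases from 2.27 to 0.89 (12 of 15 lower). FLO1 differed upward by 1.73, a call lost with totals implied by RPKM (edgeR adjusted p 0.387). For the 16 ER chaperones and folding enzymes the median IP/input change was 1.48 in the cytosol and -0.47 at the membrane, and 15 of 16 were lower at the membrane (13 without membrane input replicate 1). For KAR2 the membrane values were 1054 and 1165 CPM in the membrane inputs and 834 and 847 CPM in the membrane IPs, and the difference between fractions was -2.17 (SE 0.15, edgeR adjusted p 2.01e-07). For STT3 they were 232 and 241 CPM in the membrane inputs and 304 and 271 CPM in the membrane IPs, with a difference of -1.79 (SE 0.13, edgeR adjusted p 2.51e-07). Translocon genes were divided, with 3 of 9 higher and 4 lower at the membrane and a median difference of 0.61. That median was 0.35 without membrane input replicate 1 and 0.82 without replicate 2. SEC61, SSH1, PMA1 and ERG11 differed by -1.78, -2.76, -2.13 and -2.35. PMA1, for example, had 6979.7 and 7909 CPM in the membrane inputs and 6033 and 5934 CPM in the membrane IPs, so that its input level was higher at the membrane than in the cytosol and its IPs lay below the inputs there.

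Ribosomal proteins differed in the other direction. Their falls in the IP were smaller at the membrane, with medians of -1.19 for the small and -1.26 for the large subunit. There 110 of 137 genes were called for the difference, 101 without membrane input replicate 1 and 130 without replicate 2, and with totals implied by RPKM no gene of any kind was called higher at the membrane. TEF1 differed by 0.72. Very large proteins had a median of 1.75 at the membrane beside 2.13 in the cytosol, and 5 of 27 were called lower and 1 higher at the membrane. Without membrane input replicate 2 the number lower was 14. HEL2 differed by 0.96 (SE 0.16, edgeR adjusted p 0.000588), and SRP72 by -1.30, with 140.1 and 113 CPM in the membrane inputs and 43.5 and 46.0 CPM in the membrane IPs.

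**Figure D5:**
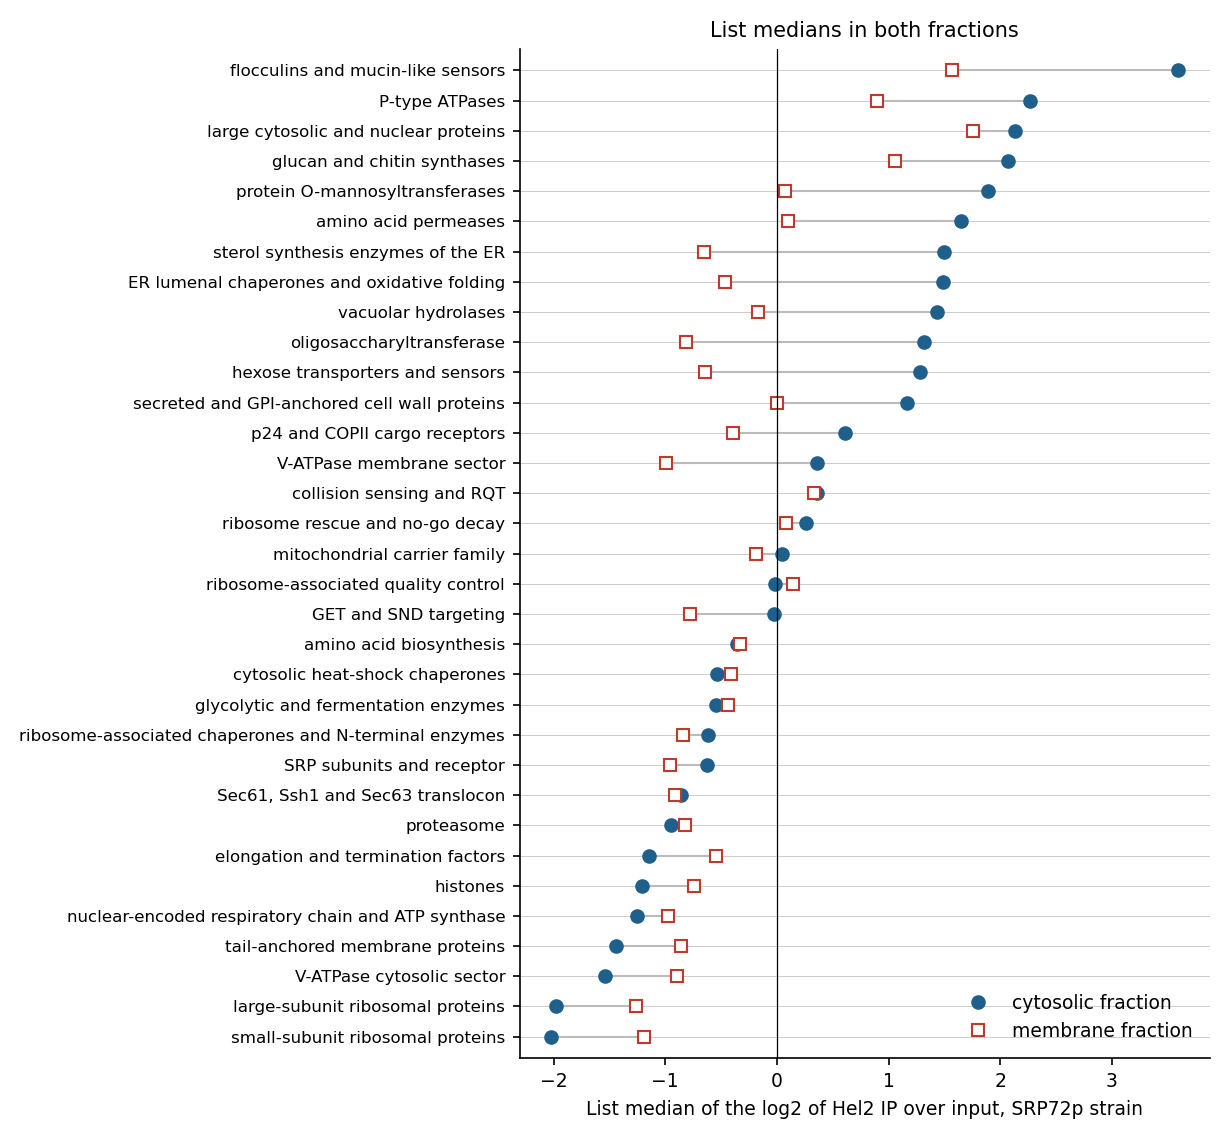
List medians of the log2 change of Hel2 IP over input in the SRP72p strain (x axis) for each gene list (rows). Filled circles are the cytosolic fraction and open squares the membrane fraction. ER chaperones lie at 1.48 in the cytosol and -0.47 at the membrane and flocculins at 3.60 and 1.57, while very large proteins are at 2.13 and 1.75.

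The cytosolic comparison was set beside those of the other strains, which use no library in common with it. Of the 1550 genes higher by a log2 of 1 or more, 1277 (82.4%) were also called so among 1536 such genes in the strain labelled GIT1p, and of the 1006 lower genes 646 (64.2%) were among 803. Such calls made up 26.9% and 14.1% of the genes tested in GIT1p, and 33.2% and 14.6% in HEL2-FTP. In the HEL2-FTP strain, over 5503 genes in both tables, 1145 of 1458 such rises (78.5%) and 534 of 1005 such falls (53.1%) were shared, among 1827 rises and 805 falls there. No gene passed this rule in opposite directions in SRP72p and GIT1p. Of the SRP72p rises 4 passed it as falls in HEL2-FTP, and of the SRP72p falls 2 as rises. The rank correlation was 0.902 with GIT1p over 5714 genes and 0.81 with HEL2-FTP over 5503 genes, a description across genes.

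The difference of the cytosolic ratio between SRP72p and GIT1p was called for 633 genes (11.1%), 155 (2.71%) higher and 478 (8.37%) lower under the label SRP72p. That division changed with the scaling, with 747 higher and 216 lower by library size alone and 140 and 57 with the totals implied by RPKM, which moved the median of all genes by 0.31 and by 1.13. The number also moved with single libraries, and became 276 and 306 without GIT1p input replicate 1 or 2, 397 and 391 without GIT1p IP replicate 1 or 2, and 310 without SRP72p IP replicate 1. The median change of the membrane-enriched set was 2.08 under the label GIT1p and 1.45 under SRP72p, and their median difference of -0.54 became 0.59 with the totals implied by RPKM. FLO1 had a change of 10.39 under GIT1p, from 3.28 and 3.64 CPM in the GIT1p inputs and 4330.1 and 5007 CPM in the GIT1p IPs, and the difference of -5.27 was called (SE 0.48, edgeR adjusted p 5.39e-05). HIS3 and HAC1 differed upward by 2.93 and 1.88, with HAC1 at 1.43 in GIT1p.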

How the data were processed

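Ribosome footprints were counted per gene in 16 libraries of 8 groups of 2. The counts were deposited by the authors with no normalisation. Beside them the authors deposited RPKM values, used here only for the library totals they imply. For the HEL2-FTP strain the authors' RPM values were used, from the 6 libraries of its inputs and cytosolic IPs. CASAVA 1.8, UMI-tools, Bowtie2, TopHat and the build sacCer3 are named per the submitters' processing notes, and the counting program, its annotation and its use of strand are not given in the sources used here. Counts were fitted with edgeR 4.0.16 in R 4.3.3 (TMM scaling, filterByExpr, quasi-likelihood test, Benjamini-Hochberg adjustment), all 16 libraries in 1 fit of group means. RPM values were fitted with limma 3.58.1 on log2(RPM + 0.5) after a filter at 1 RPM, so folds of low genes are understated. Alternatives were DESeq2 1.42.0, other scalings, no filter, a replicate block and each library left out. Of 6696 genes 6008 matched the RefSeq R64 gene table, which gave symbols and positions. Intervals use 1.96 SE.

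Named were SRP72, HEL2, GIT1, list members, the 10 largest rises and falls of at least 10 CPM, and 5 each way per difference. The comparison, members and lists were chosen with earlier results of these data known. The correlation of deviations of IP and input of equal number was 0.0166 in SRP72p cytosol, 0.032 in GIT1p cytosol and 0.423 in HEL2-FTP cytosol, over 2 pairs each and with no shared source in the labels, so they were not treated as pairs. With a replicate block HEL2-FTP gave the same 1832 rises and 806 falls at a log2 of 1 or more. The edgeR step was run on simulated data with few changed genes in balanced directions. These data differ from that setting, so the run does not speak to the scaling. Protein sequence features were not used here.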

Additional observations from a re-analysis of the deposited data

Results flagged for a closer look

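The results below stand out because the IP/input ratio differed between fractions or between strains by a test of the difference itself. In the SRP72p strain 1310 genes differed between membrane and cytosol (edgeR adjusted p below 0.05). Genes of the secretory pathway went both ways, and of 9 translocon genes 3 were higher and 4 lower at the membrane. The ratio at the membrane was lower for SEC61 (-1.78), SSH1 (-2.76), KAR2 (-2.17) and PMA1 (-2.13). It was lower as well for STT3 (-1.79), ERG11 (-2.35) and GAS1 (-1.66). It was also lower for CUE3 at -2.18, SEC16 at -1.60, HAC1 at -2.14 and SRP72 at -1.30. It was higher for FLO1 at 1.73, PRB1 at 0.98, HEL2 at 0.96 and TEF1 at 0.72. With totals implied by RPKM each of these lost its call (edgeR adjusted p 0.387, 0.81, 0.804 and 0.935), and 0 genes were called higher. The 5 largest positive differences by the naming rule were in YMR317W (2.65), YLR334C (2.54), MCO14 (2.23), POP3 (2.07) and SAL1 (1.99). The 5 largest negative ones were in IRC13 (-7.12), AAD15 (-5.89), LPX2 (-5.43), TIR4 (-5.13) and MST28 (-4.78), all with at most 3 counts in the cytosolic inputs, so these fitted values depend on the prior count. Several of these calls are unstable. Over 15 alternatives AAD15 and MCO14 lost theirs in 8 each (largest edgeR adjusted p 0.314 and 0.267), YMR317W in 5 (0.369), IRC13 in 4 (0.195), YLR334C and TIR4 in 2 each (0.249 and 0.141), and LPX2, SAL1 and POP3 in 1 each (0.13, 0.244 and 0.231). AAD15 lost it when any library other than cytosolic IP replicate 2 or membrane input replicate 2 was left out, without a filter and with a replicate block, and MCO14 when any library other than cytosolic input replicate 1 or membrane input replicate 2 was left out, by library size and with RPKM totals. YMR317W lost it without cytosolic input replicate 2, cytosolic IP replicate 1, membrane input replicate 2 or membrane IP replicate 1 and with RPKM totals, and IRC13 without either cytosolic input, membrane input replicate 1 or membrane IP replicate 1. TIR4 lost it without cytosolic input replicate 2 or membrane input replicate 1, LPX2 without membrane input replicate 1, YLR334C without cytosolic input replicate 1 or with RPKM totals, and SAL1 and POP3 with RPKM totals.

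Between the strains labelled SRP72p and GIT1p, 633 genes differed in the cytosolic ratio. The ratio was lower under SRP72p for FLO1 (-5.27), FLO5 (-4.92), FLO9 (-4.23), KAR2 (-0.97) and PMA1 (-0.56). It was higher for HIS3 (2.93), HAC1 (1.88), PRB1 (1.31), YOR072W-B (4.19), YOL013W-A (3.91), YNL042W-B (3.60) and the identical copies CUP1-1 and CUP1-2 (3.07 each). The largest negative differences were in mitochondrially encoded frames, AI3 (-8.28), Q0255 (-7.75), AI5_BETA (-7.66), AI4 (-7.60) and BI4 (-7.59). The median IP/input change of the 18 mitochondrially encoded genes was 6.92 under GIT1p and -0.27 under SRP72p. The 28 mitochondrially encoded identifiers held 0.00277% and 0.00291% of counts in the GIT1p inputs, against 0.437% and 0.279% in the SRP72p inputs, and the part of this in the difference was not tested. Leaving out any of the 8 libraries ended the call of CUP1-1 and CUP1-2 (edgeR adjusted p 0.0683 to 0.141). PMA1 lost its call in 9 alternatives of 16, namely without a filter, by library size and when any single cytosolic library other than SRP72p input replicate 2 was left out, and changed sign with RPKM totals. AI5_BETA lost its call in 5 and AI3, AI4 and BI4 in 4 each of 15 (largest edgeR adjusted p 0.0904, 0.0861, 0.0871 and 0.0803). For AI3, AI4, AI5_BETA and BI4 these included leaving out either GIT1p input or either SRP72p IP, and for AI5_BETA also GIT1p IP replicate 2. Causes of these differences were not tested.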

How the results depend on the processing

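For the SRP72p cytosolic IP against input, the count of 3925 became 2369 with totals implied by RPKM (72.4% of calls higher, against 54.9%) and lay between 3477 and 3721 with 1 library left out (2390 to 2596 at a log2 change of 1 or more). Without a filter 3876 genes passed, 2440 higher and 1436 lower, and the median of all genes moved by 0.21. The membrane-enriched set minus other genes ran from 1.57 to 1.76 with 1 library left out, the upper value without input replicate 1. The median of the longest minus the shortest coding class was 2.57 without a filter. SRP72 changed sign, to 0.042 with RPKM totals and 0.0050 without a filter. The difference between fractions gave 559 genes with RPKM totals and 1612 by DESeq2's Wald test. That between strains gave 963 by library size, 197 with RPKM totals, 813 without a filter, 917 by the Wald test and 948 without the membrane inputs, and 276 to 580 with 1 library left out (171 to 323 at a log2 of 1 or more), with 310 without SRP72p IP replicate 1, 276 and 306 without GIT1p input replicate 1 or 2, and 397 and 391 without GIT1p IP replicate 1 or 2. KAR2 and PMA1 changed sign between strains with RPKM totals, to 0.18 and 0.59. A replicate block gave 3891, 1323 and 626 genes. Of 173 genes named for the first comparison, 131 kept direction and call in every setting tried. The causes were not tested.

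Protein sequence features planned beside coding length were not run for want of sequences. Depth limits genes under a few CPM, where 3 counts equal 0.694 to 0.996 CPM.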
